A study of Homo sapiens with 18 samples.

Results

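The proteasome genes described here are the human genes whose symbol starts with PSMA, PSMB, PSMC, PSMD, PSME, PSMF or PSMG followed by a digit. Of the 27968 gene symbols in the gene tables, 53 matched this pattern. Of these, 4 are antisense RNAs and were left out, and PSMC3IP is named after a subunit but encodes a recombination cofactor, so it is given apart. That left 48 genes, and 46 of them reached 1 CPM (read counts scaled to the size of each library) in at least 3 libraries of each line. All 46 reached it in all 12 A549 and all 6 MDA-MB-231 libraries. The remaining 2, PSMA8 and PSMB11, encode subunits known from testis and thymus, and neither exceeded 3 expected counts in any library.

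The 26S proteasome is the chamber that degrades ubiquitin-tagged proteins in the cytosol and nucleus. Its 20S core stacks outer alpha rings and inner beta rings, with the cutting sites on PSMB5, PSMB6 and PSMB7, and its 19S cap binds, de-ubiquitinates, unfolds and feeds in substrates. Interferon-inducible immunoproteasome subunits, PSMB8, PSMB9 and PSMB10, can replace the 3 constitutive cutting subunits in new cores, which alters the peptides available to MHC class I molecules. In many cancer cells the 26S genes are transcribed together, with NRF1 (NFE2L1) known to raise them when proteasome capacity falls short.

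The study transfected A549, a lung adenocarcinoma line, with a control siRNA or with 1 of 3 different siRNAs against BLM, and MDA-MB-231, a triple-negative breast cancer line, with a control siRNA or 1 BLM siRNA. BLM encodes the RecQ helicase lost in Bloom syndrome. Each of the 6 groups has 3 libraries of ribosomal RNA-depleted total RNA: A549 control, A549 siRNA1, A549 siRNA2, A549 siRNA3, MDA-MB-231 control and MDA-MB-231 siRNA1. Both lines grew in DMEM with fetal serum. The protocol text covers 2D and 3D culture, and no label gives the culture of a library. The labels give neither siRNA sequences nor the time between transfection and harvest. Separate cultures for the libraries of a group are not stated either, and p-values then measure only a spread that may be technical. The 3 A549 comparisons share their control libraries.

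Libraries held 30143047 to 40328208 expected counts. BLM itself stood at 72.2 to 82.4 CPM in A549 control, 1.17 to 1.19 with siRNA1, 10.3 to 10.8 with siRNA2 and 6.18 to 6.81 with siRNA3, and it fell from between 33.5 and 35.9 to between 5.07 and 5.23 CPM in MDA-MB-231. A549 libraries carried KRT8 and AKR1C1 but lacked the lung markers SFTPC and NKX2-1, at or below 0.21 TPM, and MDA-MB-231 libraries carried VIM and were near 0 for ESR1 and PGR. The 8 genes read for A549 summed to 218.9% of their control TPM with siRNA1, 113.6% with siRNA2 and 71.3% with siRNA3 in that line, and the 6 read for MDA-MB-231, mostly VIM and AXL, to 122.1%, 147.3% and 212.6%. In MDA-MB-231 these lists stood at 80.7% and 66.9% of control with siRNA1. A list of 6 fibroblast markers summed to 1.69 to 1.79 TPM in A549 control, 11.0 to 12.6 with siRNA1, 14.7 to 16.04 with siRNA2 and 5.42 to 9.27 with siRNA3, most of it COL1A1, with COL1A2 and DCN at or below 0.02 TPM in all of them. Of the 4 tested in A549, 3 were higher with siRNA1 and 3 with siRNA2 (75% each, against 39.0% and 32.5% of all genes). With siRNA3 1 was higher and 1 lower (25% each, against 30.9% and 30.4%). Without the third siRNA3 library, these were 1 and 0 (25% and 0%, against 32.5% and 31.4%). The part of these markers in the results was not tested. The third siRNA3 library of A549 stood apart. Its gene values deviated from its group mean with an SD of 0.243 on the log2 scale, against 0.0617 to 0.161 in the other 17 libraries. Its deviations ran with transcript length (Spearman -0.79 across genes), and its proteasome genes lay 0.21 above the group mean at the median. Length trends were also seen elsewhere, as in the first and second siRNA3 libraries (0.69 and 0.64) and the second A549 control library (-0.58). In that control library the proteasome genes lay 0.105 above the group mean at the median. Counts, class values and called genes with siRNA3 are given with and without the third siRNA3 library. Proteasome transcripts are short, with a median of 1419 bases against 3087 over 13567 genes with a mean of at least 50 counts.

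siRNA1 lowered most proteasome genes in A549, whereas siRNA2 and siRNA3 moved them in both directions. Called means an adjusted p under 0.05 in edgeR's quasi-likelihood test with Benjamini-Hochberg adjustment over all genes tested. With siRNA1, 37 of the 46 genes were lower, or 80.4%, where 32.8% of all 15898 tested genes were lower, and 3 were higher, where 39.0% of all genes were. Without the second A549 control library 31 were lower, where 29.9% of all genes were, and 3 were higher, where 36.1% were. In such bulk RNA, fewer cells of a kind and less RNA per cell cannot be told apart. The median log2 fold change was -0.49 over the 46 genes and 0.09 over all genes. For 8 of the 46 the change was 1 or more in log2 units, where it was for 30.8% of all genes. With siRNA2, 13 were lower (28.3%, against 28.4% of all genes) and 11 higher (23.9%, against 32.5%), with a median of 0.01. With siRNA3, 15 were lower (32.6%, against 30.4%) and 7 higher (15.2%, against 30.9%), with a median of -0.08. With all libraries, the shares for siRNA2 and siRNA3 thus lay near or under those of all genes. Without the third siRNA3 library 22 of the 46 were lower with siRNA3 (47.8%, against 31.4% of all genes), a share above that of all genes, and 7 were higher (15.2%, against 32.5%), with a median of -0.19. Tested against each other, siRNA1 was below siRNA2 for 32 genes (27.4% of all genes) and above it for 5 (28.6%), and below siRNA3 for 32 (32.3%) and above it for 1 (34.4%). siRNA2 was above siRNA3 for 15 genes (30.1% of all genes) and below it for 11 (28.9%). The median differences were -0.57, -0.42 and 0.02 on the log2 scale. Without the third siRNA3 library, siRNA1 was below siRNA3 for 27 genes (58.7%, against 33.2% of all genes) and above it for 4 (8.7%, against 34.4%). siRNA2 was then above siRNA3 for 21 (45.7%, against 30.8% of all genes) and below it for 10 (21.7%, against 29.8%). The medians were -0.26 and 0.094.

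**Figure D1:**
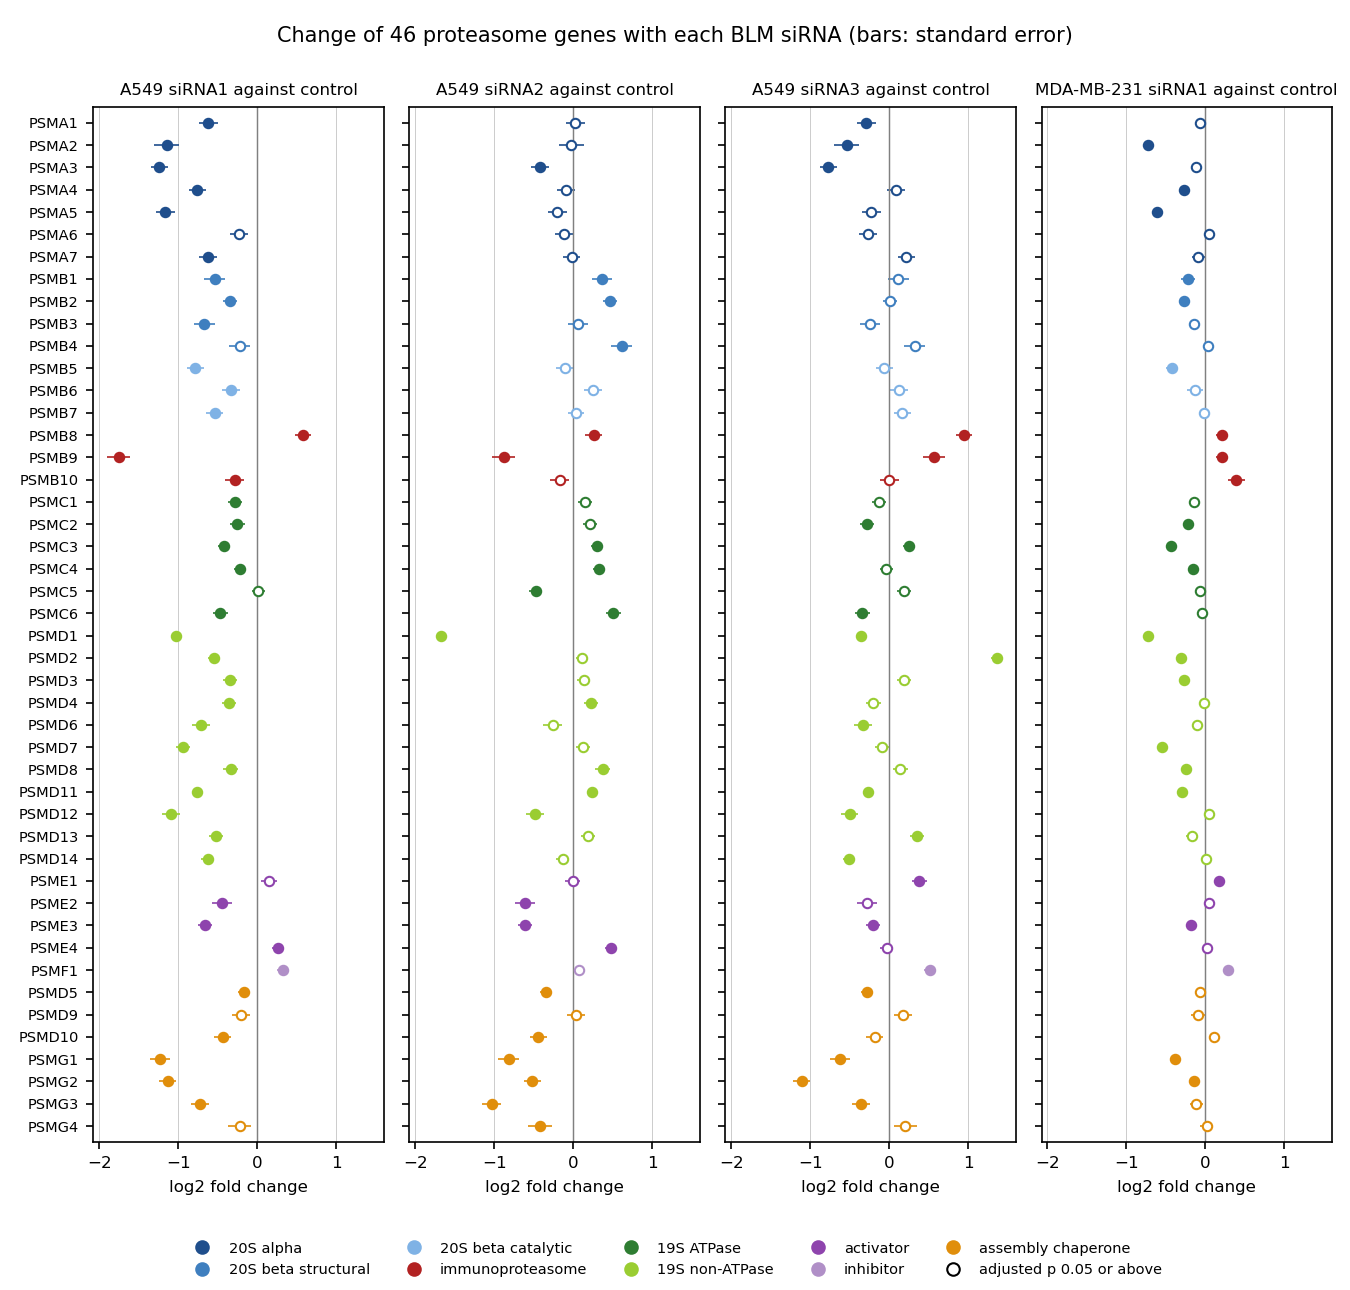
Log2 fold change of each of the 46 proteasome genes (vertical axis, ordered by role) with each siRNA against the control of its line (horizontal axis, 1 panel per comparison). Points are edgeR estimates and bars their standard errors. Filled points passed an adjusted p of 0.05. In the first panel 37 filled points lie left of 0, while PSMB8, PSME4 and PSMF1 lie right of it.

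In MDA-MB-231, siRNA1 lowered 18 of the 46 genes (39.1%, against 27.8% of the 15280 genes tested there) and raised 5 (10.9%, against 27.5%), with a median log2 fold change of -0.12 beside 0.01 over all genes. Leaving out each library in turn gave 14 to 26 lower. Without the third control library 26 were lower, where 30.9% of all genes were, and 5 were higher, where 29.3% were. No proteasome gene changed by as much as 1 on the log2 scale in this line, where 8.41% of all genes did. The siRNA1 effect was tested directly between the lines by the interaction of line and siRNA. It was higher, which for most genes means a smaller decrease, in MDA-MB-231 for 27 genes, where 27.0% of 16736 genes were, and lower for 2, where 30.8% were, or 29 in all, where 57.8% of all genes were called. The median difference was 0.31.

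These counts depend on how libraries are scaled. On log2(TPM + 1), with limma, the all-gene median of the siRNA1 comparison in A549 moved from 0.09 to 0.23, and 68.4% of all calls were higher in place of 54.3%. On that scale 26 of the 46 proteasome genes were lower and 5 higher, where 22.4% and 48.4% of all genes were, with a median of -0.23. In MDA-MB-231 the share of all calls that were higher was 60.0% on that scale and 49.8% on counts, and in the interaction it was 36.8% and 46.7%. The counts of proteasome genes in the interaction were then 23 higher and 6 lower, where 23% and 39.6% of all genes were. Replacing TMM by upper quartile factors, or removing each library's trend on transcript length, left 30 and 37 proteasome genes lower with siRNA1 in A549. Of all genes, 28.8% and 35.4% were then lower.

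The alpha ring, which gates entry to the core, carried some of the deepest decreases of siRNA1. In A549, 6 of its 7 genes fell with siRNA1 (85.7%, against 32.8% of all genes), with a median log2 fold change of -0.76. PSMA3, an alpha subunit, stood at 205, 226 and 180 CPM in the control libraries, at 89.2, 88.8 and 80.5 with siRNA1, at 151, 154 and 151 with siRNA2 and at 105, 112 and 140 with siRNA3. Every library of the 3 siRNAs lay below every control library. Its log2 fold change was -1.24 with siRNA1 (SE 0.11, edgeR adjusted p = 2.63e-07), -0.42 with siRNA2 and -0.77 with siRNA3 (-0.91 without the third siRNA3 library). In MDA-MB-231 PSMA3 was at 136, 141 and 144 CPM in control and 127, 133 and 125 with siRNA1, groups that did not overlap but whose log2 difference of -0.13 was not called. The interaction for PSMA3 was 1.07 (SE 0.10, edgeR adjusted p = 3.83e-07). The antisense gene PSMA3-AS1 overlaps this locus, and since the sources used here do not state whether counting used strand, reads of the pair cannot be told apart with certainty.

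PSMA5 and PSMA2 fell with siRNA1 in both lines. PSMA5 had 156, 173 and 141 CPM in A549 control and 73.3, 64.5 and 72.0 with siRNA1, a log2 fold change of -1.16 (SE 0.12, edgeR adjusted p = 1.24e-06). In MDA-MB-231 it went from 172, 191 and 157 to 114, 115 and 112 CPM, a log2 fold change of -0.61. The groups did not overlap in either line, and the decrease was the smaller in MDA-MB-231 by 0.51 on the log2 scale. PSMA2 fell by 1.14 on the log2 scale in A549 and by 0.73 in MDA-MB-231, where its libraries went from 173 to 185 CPM down to 105 to 113. PSMA2 also fell with siRNA3, by 0.54 with all libraries and 0.77 without the third, and that call was lost without the second siRNA3 library (log2 fold change -0.38, adjusted p = 0.0515 by edgeR). With siRNA2 neither gene was called, at -0.20 for PSMA5 and -0.03 for PSMA2.

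The other alpha genes followed siRNA1 less strongly. PSMA4, PSMA1 and PSMA7 fell by 0.76, 0.62 and 0.62 in A549. PSMA6 was the member not called, with 204, 197 and 203 CPM against 232, 257 and 222 in control, groups that did not overlap, and a log2 fold change of -0.24. With siRNA2, PSMA3 was the single alpha gene called. Summed over the 7 genes, alpha TPM (transcript abundance per length, as a share of the library) was 2775 ± 155 (SD, n = 3) in A549 control and 2008 ± 44.1 with siRNA1, or 72.4% of control. It was 98.5% of control with siRNA2, 86.0% with siRNA3 (82.4% without the third library) and 94.0% with siRNA1 in MDA-MB-231.

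The constitutive beta ring showed the same direction with siRNA1 and the opposite one, for structural subunits, with siRNA2. PSMB5, the chymotrypsin-like cutting subunit and the main target of proteasome inhibitor drugs, had 209, 229 and 209 CPM in A549 control and 131, 111 and 134 with siRNA1, with no overlap. Its log2 fold change was -0.78 (SE 0.11, edgeR adjusted p = 1.91e-05). With siRNA2 it had 207, 210 and 184 CPM, and with siRNA3 191, 187 and 241, both overlapping the control range. In MDA-MB-231 PSMB5 fell from 143, 134 and 116 to 94.5, 100 and 97.2 CPM, by 0.43 on the log2 scale.

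PSMB6, the caspase-like subunit, and PSMB7, the trypsin-like subunit, fell by 0.33 and 0.54 on the log2 scale with siRNA1 in A549. PSMB6 had 187, 201 and 191 CPM in control and 161, 135 and 163 with siRNA1. PSMB7 had 208, 237 and 216 in control and 160, 142 and 152 with siRNA1, and its counts are estimates, since reads shared with other sequences left it with fractional counts in all 18 libraries. Neither gene was called with siRNA2, siRNA3 or in MDA-MB-231. The PSMB6 call was lost without the second control library or the second siRNA1 library of A549, with adjusted p up to 0.0689 in edgeR.

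The structural subunits PSMB1, PSMB2 and PSMB4 rose with siRNA2. PSMB4 had 187, 206 and 181 CPM in control and 304, 304 and 268 with siRNA2, a log2 fold change of 0.61 (SE 0.13, edgeR adjusted p = 0.00137) with no overlap. PSMB2 rose by 0.47 and PSMB1 by 0.36, and with siRNA1 the same genes fell by 0.34 and 0.54, while PSMB4 was at -0.22 and not called. Tested against each other, siRNA1 was below siRNA2 by 0.83 for PSMB4, 0.81 for PSMB2 and 0.90 for PSMB1, each called. The PSMB1 call with siRNA2 was lost on leaving out any of 4 of the 12 libraries, the first or second of siRNA2 and the first or the third of control, with adjusted p up to 0.1 in edgeR. Summed TPM of the 4 structural genes was 134.8% of control with siRNA2 and 86.0% with siRNA1.

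Taking the 14 constitutive core genes, siRNA1 lowered 12 in A549 (85.7%, against 32.8% of all genes) and raised 0. siRNA2 lowered 1 (7.14%, against 28.4%) and raised 3 (21.4%, against 32.5%). siRNA3 lowered 3 (21.4%, against 30.4%) and raised 0. Without the third siRNA3 library it lowered 6 (42.9%, against 31.4%) and raised 0. In MDA-MB-231 siRNA1 lowered 6 (42.9%, against 27.8%) and raised 0. The summed TPM of the 14 genes was 5573 ± 216 (SD, n = 3) in A549 control, 4368 ± 148 with siRNA1, 6191 ± 188 with siRNA2 and 5260 ± 375 with siRNA3. The siRNA1 libraries all lay below and the siRNA2 libraries all above the control libraries, while the siRNA3 libraries overlapped them. Without the third, the siRNA3 sum was 5044 ± 48.7 (SD, n = 2), below the control libraries. The 3 further genes called without it were PSMA5 (-0.39), PSMA6 (-0.44) and PSMB3 (-0.44). In MDA-MB-231 the sums were 5021 ± 188 in control and 4761 ± 131 with siRNA1, and the groups overlapped.

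The 3 immunoproteasome genes did not move as a unit in A549. All 3 are induced by interferon, and 2 of them, PSMB8 and PSMB9, lie in the MHC class II region next to the peptide transporter genes. PSMB9 and TAP1, which pumps peptides into the endoplasmic reticulum, are read in opposite directions from start sites 488 bases apart. Because siRNA1 moved these neighbours in opposite directions, their RefSeq promoter windows (GRCh38.p14, 250 bases before to 50 after the start site) are shown first, together with those of PSMB8 and PSMB10. The PSMB9 window is chr6:32853942-32854241 on the plus strand and the TAP1 window chr6:32853655-32853954 on the minus strand, and they overlap by 13 bases. The PSMB8 window is the second of its listed starts, chr6:32843998-32844297 on the minus strand, and the PSMB10 window is chr16:67936801-67937100 on the minus strand. Each is written 5′ to 3′ along its gene, with matches on either strand in capitals to 4 letter patterns: GAAA, any 2 bases and GAAA again, as in interferon-stimulated response elements (called ISRE-like), TTCNNNGAA, as in interferon gamma-activated sites, TGACNNNGC, as in the antioxidant response elements that NRF1 and NRF2 read, and CCAAT.
PSMB9: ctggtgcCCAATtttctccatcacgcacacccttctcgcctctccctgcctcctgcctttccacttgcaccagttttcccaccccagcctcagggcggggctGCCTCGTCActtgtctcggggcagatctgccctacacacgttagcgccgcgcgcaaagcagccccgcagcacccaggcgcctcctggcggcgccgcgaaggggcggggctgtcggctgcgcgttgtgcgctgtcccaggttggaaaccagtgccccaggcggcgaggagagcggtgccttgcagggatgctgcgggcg
TAP1: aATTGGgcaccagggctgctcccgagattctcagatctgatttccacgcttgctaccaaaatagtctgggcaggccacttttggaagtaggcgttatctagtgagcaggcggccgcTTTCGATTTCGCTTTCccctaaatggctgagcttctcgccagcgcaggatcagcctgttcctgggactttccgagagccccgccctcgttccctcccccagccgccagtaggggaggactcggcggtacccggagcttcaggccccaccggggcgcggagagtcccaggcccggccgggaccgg
PSMB8: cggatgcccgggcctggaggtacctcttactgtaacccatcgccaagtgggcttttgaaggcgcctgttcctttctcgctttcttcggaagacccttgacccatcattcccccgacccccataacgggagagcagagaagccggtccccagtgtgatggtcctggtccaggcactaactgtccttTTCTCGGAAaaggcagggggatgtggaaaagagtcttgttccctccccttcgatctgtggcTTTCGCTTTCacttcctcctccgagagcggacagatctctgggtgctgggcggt
PSMB10: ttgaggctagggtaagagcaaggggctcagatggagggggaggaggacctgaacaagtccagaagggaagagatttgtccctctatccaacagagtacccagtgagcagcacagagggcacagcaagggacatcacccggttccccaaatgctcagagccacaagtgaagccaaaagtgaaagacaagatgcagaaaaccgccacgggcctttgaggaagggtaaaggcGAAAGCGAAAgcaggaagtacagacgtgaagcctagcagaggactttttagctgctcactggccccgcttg

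The capitals in the PSMB9 window are 1 CCAAT and 1 TGACNNNGC match on the reverse strand. The CCAAT match lies in the overlap and is the same stretch of DNA as the capitals at the start of the TAP1 window. The long capital run of TAP1 holds 2 overlapping ISRE-like matches on the reverse strand, at -134 and -128 from its start site. They lie in the 488 bases between the TAP1 and PSMB9 start sites, upstream of both genes, but beyond the end of the PSMB9 window. PSMB8 holds 1 TTCNNNGAA and 1 ISRE-like match, and PSMB10 holds 1 ISRE-like match. The other PSMB8 window, chr6:32844630-32844929, held no match to any of the 4 patterns. The ISRE-like pattern occurred in 2 of 4 immunoproteasome windows, in 2 of 32 constitutive 20S and 19S windows (6.25%), and in 3.58% of all 35097 promoter windows. TGACNNNGC occurred in 21.9% of the 20S and 19S windows and 13.3% of all windows, and CCAAT in 46.9% and 34.6%. A match describes letters and is not a bound site. Windows were found for 42 of the 48 genes. PSMA7, PSMB1, PSMB6, PSMB7, PSMD4 and PSMG3 were not matched.

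PSMB9, the inducible counterpart of PSMB6, fell with siRNA1 and siRNA2 and rose with siRNA3. It had 11.3, 14.4 and 13.7 CPM in A549 control, 4.10, 3.65 and 3.90 with siRNA1, 7.51, 7.60 and 6.25 with siRNA2, and 16.7, 17.5 and 24.0 with siRNA3. No siRNA group overlapped the control, the first 2 lying below it and siRNA3 above. The log2 fold changes were -1.76 (SE 0.15, edgeR adjusted p = 1.96e-07), -0.88 (SE 0.14) and 0.56 (SE 0.14), the last 0.38 without the third siRNA3 library. siRNA1 lay below siRNA3 by 2.32 (2.14 without the third siRNA3 library) and below siRNA2 by 0.87 on the log2 scale, both called. In MDA-MB-231 PSMB9 went from 25.9, 25.9 and 22.8 to 30.2, 29.5 and 26.8 CPM, a log2 fold change of 0.21. The siRNA1 effect differed between the lines by 1.92 (SE 0.14, edgeR adjusted p = 1.49e-08), the largest difference among the 46 genes.

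PSMB8, the inducible counterpart of PSMB5, was higher with each siRNA. Its CPM was 17.6, 19.1 and 16.7 in A549 control, 27.3, 23.4 and 29.2 with siRNA1, 20.5, 23.2 and 20.2 with siRNA2 and 32.1, 32.6 and 38.3 with siRNA3. Each siRNA group lay above the control without overlap. The log2 fold change was 0.58 with siRNA1 (SE 0.10), 0.26 with siRNA2 (SE 0.11, adjusted p = 0.049 in edgeR) and 0.94 with siRNA3 (SE 0.11, 0.86 without the third library). The siRNA2 call was lost when any of 8 of the 12 libraries was left out, all 3 of siRNA2, the first of siRNA1, the first and second of siRNA3 and the first and the third of control, with log2 fold changes of 0.19 to 0.31 and adjusted p up to 0.191. In MDA-MB-231, PSMB8 went from 72.1, 67.7 and 60.2 to 76.1, 81.6 and 73.9 CPM, without overlap and by 0.21. An antisense gene, PSMB8-AS1, overlaps PSMB8, so the strand limit given for PSMA3 holds here too.

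PSMB10, the inducible counterpart of PSMB7, moved least of the 3 in A549. It had 15.3, 17.6 and 16.1 CPM in A549 control and 13.5, 11.8 and 14.9 with siRNA1, a log2 fold change of -0.28 (SE 0.12, adjusted p = 0.0465 in edgeR) that was lost on leaving out any of 6 of the 12 libraries, the first and second of siRNA1, the first and second of siRNA2 and the second and the third of control (adjusted p up to 0.167). With siRNA2 and siRNA3 it was not called. In MDA-MB-231 it rose from 19.9, 16.9 and 14.7 to 21.2, 24.3 and 22.1 CPM, by 0.39 on the log2 scale (SE 0.11, edgeR adjusted p = 0.0108). All 3 immunoproteasome genes were thus higher in the treated MDA-MB-231 libraries. The PSMB8 and PSMB9 calls in that line did not hold on leaving out single libraries. PSMB8 lost its call without the first or second siRNA1 library or the second or the third control library (adjusted p up to 0.124), and PSMB9 without the first or second siRNA1 library or the third control library (adjusted p up to 0.13).

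**Figure D2:**
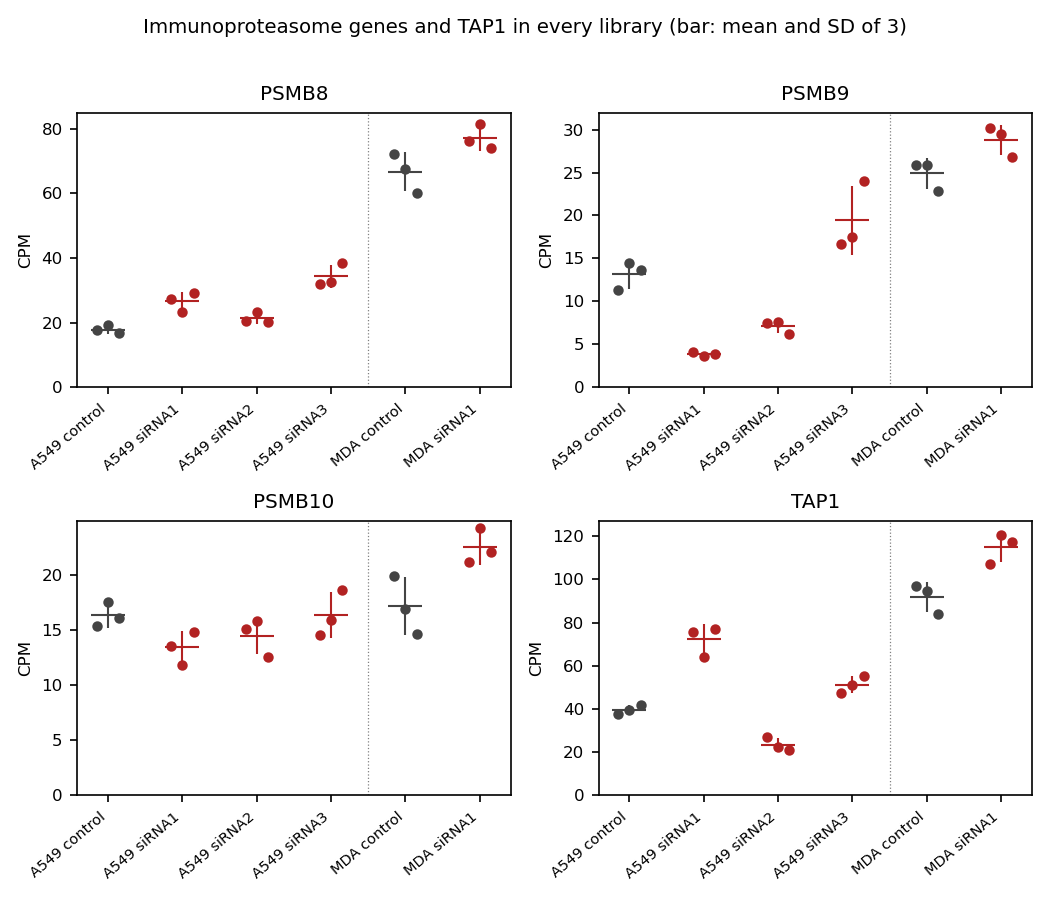
CPM (vertical axis, linear from 0) of PSMB8, PSMB9, PSMB10 and TAP1 in each of the 18 libraries by group (horizontal axis). Points are libraries, control grey and siRNA red, and bars the mean and SD of 3. With siRNA1 in A549, PSMB9 lies between 3.65 and 4.10 CPM, under its control range, while TAP1 lies between 64.2 and 77.1 CPM, above its own.

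TAP1 went against PSMB9 with siRNA1 and with it otherwise. It had 37.5, 39.4 and 41.7 CPM in A549 control, 75.5, 64.2 and 77.1 with siRNA1, 26.8, 22.5 and 21.0 with siRNA2 and 47.2, 51.2 and 55.1 with siRNA3. The siRNA groups did not overlap the control. The log2 fold changes were 0.87 (SE 0.10), -0.76 and 0.37 (0.31 without the third siRNA3 library), and 0.33 in MDA-MB-231, each called. As a ratio of TPM, PSMB9 stood at 92.2% ± 7.91 of TAP1 in A549 control and 15.6% ± 0.894 with siRNA1 (SD, n = 3). It stood at 83.0% with siRNA2, 102.1% with siRNA3 (96.6% without the third library), and 75.8% and 69.4% in MDA-MB-231 control and siRNA1, and every A549 siRNA1 library lay below every library of the other groups.

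Set against the constitutive subunit each replaces, the inducible share changed differently by position. PSMB8 TPM was 8.35% ± 0.222 of PSMB5 TPM in A549 control, 22.0% ± 0.606 with siRNA1, 11.1% ± 0.505 with siRNA2 and 16.9% ± 1.19 with siRNA3 (SD, n = 3), or 17.6% without the third library. No siRNA library overlapped the control range. PSMB9 over PSMB6 was 5.28% ± 0.508 in control, 1.98% ± 0.124 with siRNA1, 2.42% ± 0.106 with siRNA2 and 7.17% ± 0.364 with siRNA3 (6.98% without the third library), again without overlap, but lower for siRNA1 and siRNA2. PSMB10 over PSMB7 was 7.50% ± 0.0355 in control, 8.95% ± 0.795 with siRNA1, 6.50% ± 0.480 with siRNA2 and 6.71% ± 0.366 with siRNA3 (6.83% without the third library). Every siRNA1 library lay above the control range, and every siRNA2 and siRNA3 library below it. In MDA-MB-231 the PSMB8 ratio went from 53.0% ± 1.31 to 79.2% ± 3.01, the PSMB9 ratio from 16.3% ± 1.60 to 20.5% ± 1.86 and the PSMB10 ratio from 9.68% ± 1.18 to 12.9% ± 0.866, and in each of the 3 all treated libraries lay above all controls. With 3 libraries against 3, no exact permutation test of such a ratio could go below a 2-sided p of 0.1, so these are given as values.

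**Figure D3:**
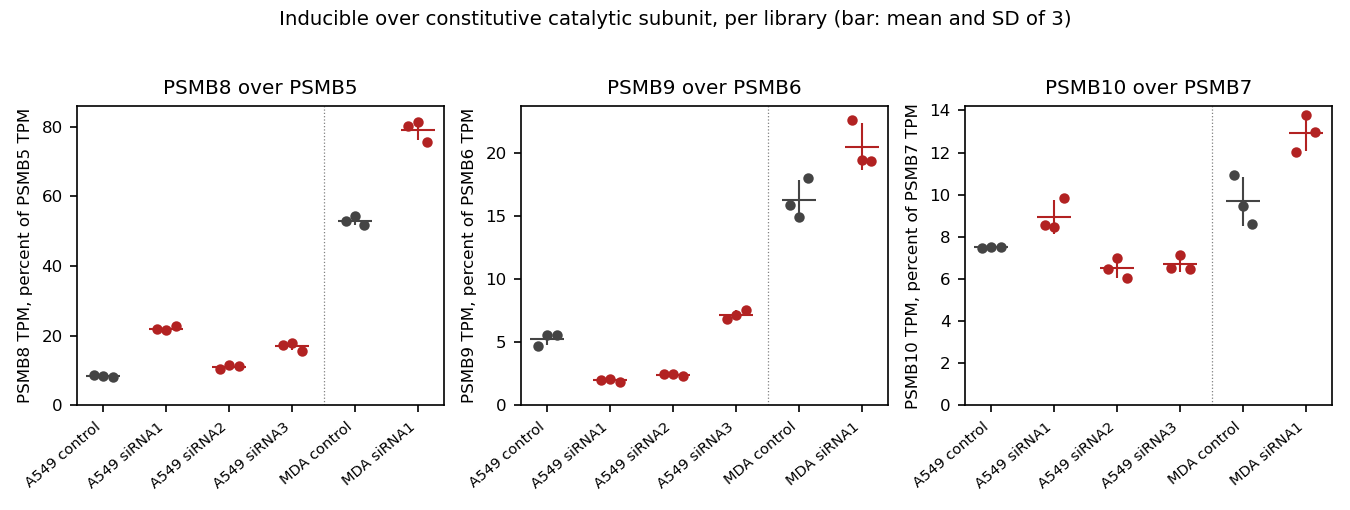
TPM of each inducible subunit as a percent of the TPM of the constitutive subunit it replaces (vertical axes, linear from 0) in each library by group (horizontal axis). Points are libraries and bars the mean and SD of 3. The PSMB8 ratio with siRNA1 in A549 is near 22.0%, above the 8.35% of control, while the PSMB9 ratio is near 1.98%, below the 5.28% of control.

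Immunoproteasome genes are high in leukocytes, so 7 leukocyte markers were read in the same libraries. PTPRC and CD3E were at 0 in every A549 control and siRNA1 library. The summed TPM of the 7 was 25.9 to 31.3 in A549 control, 29.2 to 31.9 with siRNA1, 41.1 to 43.2 with siRNA2, 38.7 to 43.5 with siRNA3 and 248 to 277 in MDA-MB-231 control, with CD68 giving most of it. PTPRC was at most 0.13 TPM in MDA-MB-231. Of the 4 tested in A549, 1 was higher with siRNA1 (25%, against 39.0% of all genes) and 3 with siRNA2 (75%, against 32.5%). LYZ had the largest log2 fold change with siRNA2, at 5.7. With siRNA3 2 were higher (50%, against 30.9%) and 1 lower (25%, against 30.4%), with or without the third library. In MDA-MB-231 1 of 3 was higher and 1 lower (33.3% each, against 27.5% and 27.8%). The part of the CD68 level in the immunoproteasome values was not tested.

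The 6 ATPases of the 19S base, which form the ring that unfolds substrates, had the smallest median decrease with siRNA1 among the constitutive parts, at -0.27 on the log2 scale. With siRNA1 in A549, 5 of the 6 fell (83.3%, against 32.8% of all genes), by 0.22 (PSMC4) to 0.47 (PSMC6). On log2(TPM + 1), however, PSMC2 and PSMC4 were at 0.035 and 0.036, above 0. The summed TPM of the 6 was 1353 ± 14.1 (SD, n = 3) against 1325 ± 15.7 in control. PSMC5 had 211, 190 and 213 CPM with siRNA1 against 195, 207 and 206 in control, a log2 fold change of 0.02. With siRNA2 the directions differed within the ring: PSMC6, PSMC4 and PSMC3 rose by 0.51, 0.33 and 0.30, and PSMC5 fell by 0.47. PSMC6 had 121, 130 and 108 CPM in control, 170, 177 and 163 with siRNA2 and 85.5, 90.2 and 108 with siRNA3. It lay above the control without overlap with siRNA2, and siRNA2 exceeded siRNA3 by 0.85 on the log2 scale (SE 0.10, edgeR adjusted p = 4.59e-06), or by 0.95 without the third siRNA3 library.

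PSMC5 had 153, 145 and 140 CPM with siRNA2, below every control library, and its log2 fold change was -0.47 (SE 0.08, edgeR adjusted p = 0.000276). In MDA-MB-231, PSMC3 fell from 220, 218 and 211 to 164, 163 and 151 CPM, by 0.44 on the log2 scale, and PSMC2 and PSMC4 by 0.22 and 0.16. The PSMC4 call in that line was lost on leaving out any 1 of 5 of the 6 libraries, the third control library excepted, with adjusted p up to 0.128 in edgeR.

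All 11 non-ATPase genes of the 19S cap fell with siRNA1 in A549, where 32.8% of all genes fell. Their median log2 fold change was -0.63, although PSMD3, PSMD4 and PSMD8 were not called on log2(TPM + 1). PSMD1, 1 of the large scaffold subunits of the base, was the only one of the 11 to fall with every siRNA in both lines. It had 354, 353 and 340 CPM in A549 control, 172, 169 and 172 with siRNA1, 109, 113 and 106 with siRNA2 and 265, 270 and 278 with siRNA3. The groups were separate from each other as well as from the control. The log2 fold changes were -1.03 (SE 0.06, edgeR adjusted p = 6.26e-09), -1.68 (SE 0.06, edgeR adjusted p = 5.36e-10) and -0.36 (-0.38 without the third siRNA3 library), and siRNA2 was below siRNA1 by 0.65 and below siRNA3 by 1.31. Over all alternatives the siRNA2 value ranged from -1.77 to -1.57. In MDA-MB-231 PSMD1 fell from 226, 234 and 206 to 135, 134 and 133 CPM, by 0.73 (SE 0.06, edgeR adjusted p = 4.15e-06).

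PSMD2, the other large scaffold subunit, to which ubiquitin shuttles and USP14 dock, went up with siRNA3. It had 342, 340 and 365 CPM in A549 control, 904, 905 and 878 with siRNA3, 392, 390 and 351 with siRNA2 and 247, 219 and 251 with siRNA1. The siRNA3 libraries lay far above all others of the line, and the siRNA2 libraries overlapped the control. The log2 fold change with siRNA3 was 1.36 (SE 0.08, edgeR adjusted p = 8.18e-09) and 1.37 without the third library, and it was -0.55 with siRNA1. siRNA3 exceeded siRNA1 by 1.91 and siRNA2 by 1.25 (1.92 and 1.26 without the third library). In MDA-MB-231, where PSMD2 is the most abundant 19S transcript per length, it fell from 1011, 1020 and 915 to 764, 834 and 775 CPM, by 0.31.

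The lid genes PSMD12, PSMD7, PSMD11 and PSMD14 fell by 1.09, 0.94, 0.76 and 0.63 with siRNA1 in A549. PSMD14 encodes the metalloprotease that removes ubiquitin chains, and PSMD7 its partner. PSMD12 had 219, 234 and 200 CPM in control and 98.7, 119 and 89.0 with siRNA1, and fell with siRNA2 by 0.49 and with siRNA3 by 0.50 (0.58 without the third library). In MDA-MB-231 it had 196, 189 and 223 CPM in control and 207, 208 and 211 with siRNA1, overlapping, and the siRNA1 effect differed between the lines by 1.09 (SE 0.13, edgeR adjusted p = 3.81e-06). PSMD7 fell in both lines, from 221, 228 and 198 to 114, 112 and 111 CPM in A549 and from 196, 212 and 183 to 128, 137 and 138 in MDA-MB-231, with no overlap. Of PSMD3, PSMD4, PSMD6, PSMD8 and PSMD13, the log2 fold changes with siRNA1 in A549 ranged from -0.71 (PSMD6) to -0.33 (PSMD8). An antisense gene, PSMD6-AS2, is named after PSMD6, so the strand limit given for PSMA3 holds for PSMD6 too. With siRNA2, PSMD8, PSMD11 and PSMD4 rose by 0.37, 0.24 and 0.23, the last lost on leaving out any 1 of 7 of the 12 libraries, and with siRNA3 PSMD13 rose by 0.35 (0.27 without the third library).

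Over the 17 genes of the 19S cap, siRNA1 lowered 16 in A549 (94.1%, against 32.8% of all genes) and raised 0. siRNA2 lowered 3 (17.6%, against 28.4%) and raised 6 (35.3%, against 32.5%). siRNA3 lowered 7 (41.2%, against 30.4%) and raised 3 (17.6%, against 30.9%). Without the third siRNA3 library it lowered 10 (58.8%, against 31.4%) and raised 3 (17.6%, against 32.5%). In MDA-MB-231 siRNA1 lowered 9 (52.9%, against 27.8%) and raised 0. The medians were -0.47, 0.15, -0.13 and -0.17 on the log2 scale. The constitutive core had medians of -0.62, 0.00, -0.03 and -0.13 in the same order, and the immunoproteasome genes of -0.28, -0.17, 0.56 and 0.21. Without the third siRNA3 library the siRNA3 medians were -0.23, -0.15 and 0.38. Summed 19S TPM in A549 was 3639 ± 23.8 (SD, n = 3) in control, 3179 ± 23.4 with siRNA1, 4070 ± 80.1 with siRNA2 and 3798 ± 83.5 with siRNA3 (3842 ± 50.4, n = 2, without the third library), and no siRNA group overlapped the control. The siRNA3 sum lay above the control although more of the 17 genes fell than rose, and it includes PSMD2, which rose by 1.36. With siRNA3 the ATPases summed to 97.7% of control and the non-ATPases, PSMD2 among them, to 108.2%. Without the third library these were 98.3% and 109.7%. It was 4177 ± 92.3 and 3781 ± 57.0 in MDA-MB-231 control and siRNA1.

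**Figure D4:**
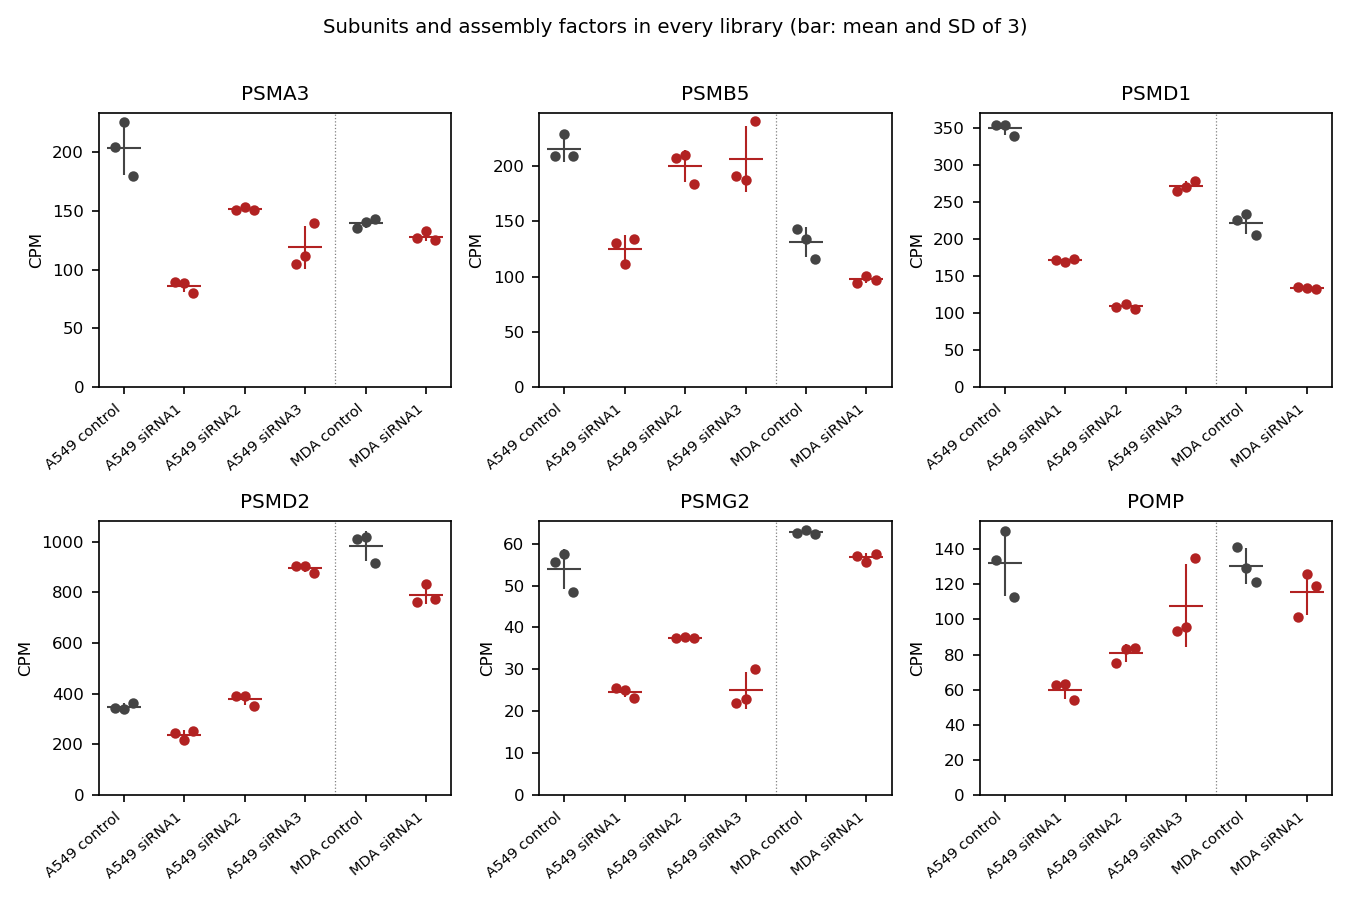
CPM (vertical axes, linear from 0) of PSMA3, PSMB5, PSMD1, PSMD2, PSMG2 and the maturation factor POMP in each library by group (horizontal axis). Points are libraries and bars the mean and SD of 3. PSMD1 is lowest with siRNA2, between 106 and 113 CPM, and PSMD2 highest among the A549 groups with siRNA3, between 878 and 905 CPM.

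The 4 activators differed. PSME1 and PSME2, interferon-inducible and together forming the cap associated with immunoproteasomes, did not move together: PSME2 fell by 0.45 with siRNA1 and 0.61 with siRNA2, while PSME1 was not called with either and rose by 0.38 with siRNA3 (0.27 without the third library). PSME2 had 134, 148 and 124 CPM in A549 control, 104, 91.4 and 102 with siRNA1 and 89.9, 91.6 and 83.9 with siRNA2, below the control without overlap. With siRNA3, PSME2 was not called, at -0.28, but was without the third library, at -0.46. PSME3, the nuclear activator, had 399, 406 and 412 CPM in control, 265, 244 and 260 with siRNA1 and 271, 276 and 248 with siRNA2. It fell by 0.66 and 0.61. The log2 fold change of PSME3 with siRNA3 was -0.21 (-0.31 without the third library), and that call was lost on leaving out any 1 library except the third of siRNA3. PSME4, which caps cores in the nucleus, rose with siRNA2, from 192, 180 and 186 to 265, 266 and 245 CPM, by 0.48 on the log2 scale. With siRNA1 PSME4 was at 221, 225 and 223 CPM, a log2 fold change of 0.26 that was not called without a filter on low counts or once the length trend was removed.

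PSMF1, an inhibitor of the 20S core in the test tube, was higher with siRNA1 in both lines and with siRNA3. It had 134, 139 and 151 CPM in A549 control, 179, 169 and 183 with siRNA1, 152, 149 and 144 with siRNA2 and 194, 192 and 220 with siRNA3. The siRNA1 and siRNA3 libraries lay above the control range and those of siRNA2 overlapped it. The log2 fold changes were 0.32, 0.07 and 0.51 (0.45 without the third siRNA3 library), and 0.28 in MDA-MB-231, where it rose from 107, 108 and 101 to 131, 129 and 124 CPM. The siRNA1 call in A549 was not made once the length trend was removed, at 0.12.

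Most of the assembly chaperones fell in A549 with every siRNA, and none rose. The genes lowered were 5 of 7 with siRNA1 (71.4%, against 32.8% of all genes) and 6 with siRNA2 (85.7%, against 28.4%). With siRNA3 they were 4 (57.1%, against 30.4%), and also 4 without the third library (against 31.4%). PSMG1 and PSMG2 form a dimer that scaffolds the alpha ring. PSMG1 had 60.4, 67.9 and 54.5 CPM in control, 26.3, 27.7 and 24.0 with siRNA1, 30.8, 36.2 and 36.7 with siRNA2 and 34.2, 36.1 and 48.2 with siRNA3. All siRNA libraries lay below all controls, and the log2 fold changes were -1.23, -0.82 and -0.63 (-0.79 without the third siRNA3 library). PSMG2 had 55.5, 57.6 and 48.5 CPM in control, 25.6, 25.0 and 23.2 with siRNA1 and 21.9, 23.0 and 30.1 with siRNA3, a fall by 1.13 and 1.11, and by 0.52 with siRNA2. The siRNA3 value of PSMG2 was -1.26 without the third library.

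PSMG3, another ring-assembly factor, fell by 0.73, 1.03 and 0.36 with siRNA1, siRNA2 and siRNA3, and PSMD5, a base chaperone, by 0.17, 0.34 and 0.28. Without the third siRNA3 library the siRNA3 values were -0.52 and -0.35. The siRNA1 value of PSMD5 turned to 0.084 on log2(TPM + 1) and its call was lost on leaving out any 1 of 9 of the 12 libraries (adjusted p up to 0.156 in edgeR). PSMG3 overlaps an antisense gene, PSMG3-AS1, and its siRNA3 call was lost without the first or second siRNA3 library or the second control library. PSMD10 fell by 0.44 with siRNA1 and siRNA2, and PSMD9 was not called with any siRNA. The summed TPM of the 7 chaperones was 578 ± 22.1 (SD, n = 3) in A549 control, 430 ± 17.2 with siRNA1, 416 ± 20.2 with siRNA2 and 430 ± 15.6 with siRNA3. These are 74.3%, 71.9% and 74.3% of control (72.9% for siRNA3 without the third library), and no library of the siRNA groups reached the control range. In MDA-MB-231 it was 559 ± 21.9 and 534 ± 1.53. There PSMG1 fell by 0.38, from 52.7, 55.0 and 57.8 to 42.8, 43.1 and 41.3 CPM, and PSMG2 by 0.14, a call lost on leaving out any 1 of 5 of the 6 libraries, the third control library excepted.

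The difference between the lines in the siRNA1 effect was called for all 7 alpha genes, for PSMB5 and PSMB7 of the catalytic genes and for 4 of 7 chaperones. Each had the higher value in MDA-MB-231, a call made for 27.0% of all genes. For PSMA6 it was not called on log2(TPM + 1), and for PSMB5 it was lost without the second A549 siRNA1, second A549 control or the third MDA-MB-231 control library (adjusted p up to 0.0704 in edgeR). Of the genes named as lowered in both lines, PSMA2 and PSMD1 differed by 0.37 and 0.26 between the lines. PSMB8 and PSME4 were the 2 genes with the interaction in the other direction, at -0.41 and -0.29, and both calls were lost without any 1 of the MDA-MB-231 siRNA1 libraries or the second MDA-MB-231 control library. For 17 genes, PSMC3 at -0.06 and PSMF1 at -0.09 among them, the difference was not called. Across the 46 genes the Spearman correlation of the siRNA1 effects in the 2 lines was 0.48, a description over genes, which are not independent and share libraries within each line.

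**Figure D5:**
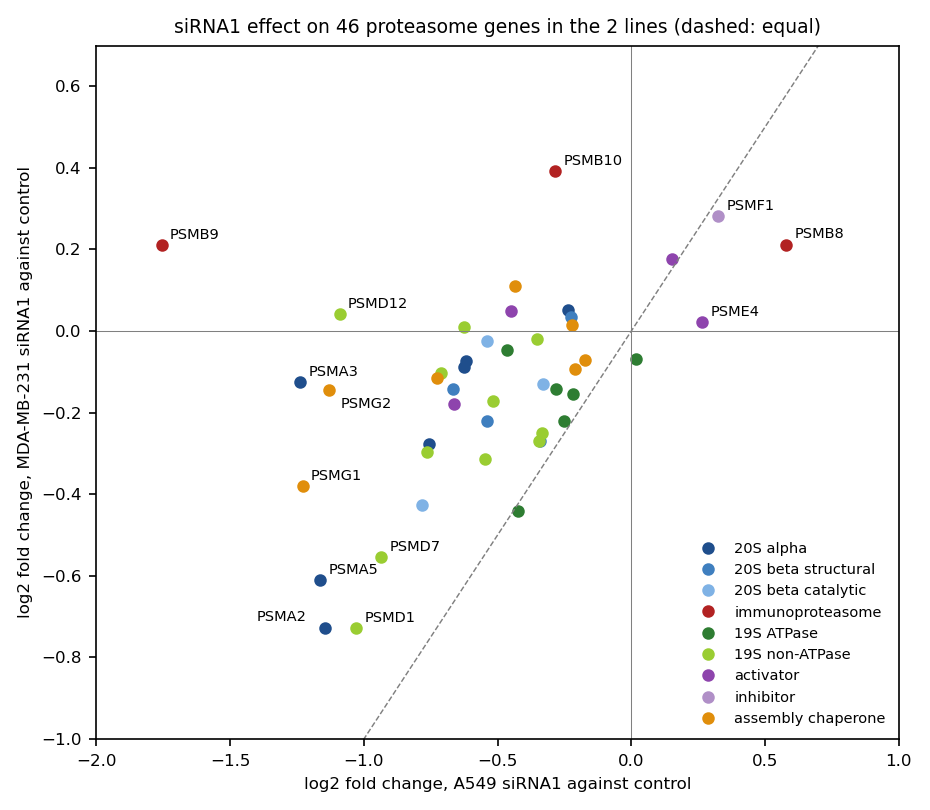
Log2 fold change with siRNA1 in MDA-MB-231 (vertical axis) against that in A549 (horizontal axis) for 46 proteasome genes, 1 point per gene, coloured by role, with equal effects on the dashed line. Most points lie above the dashed line and left of 0, and PSMB9 is the farthest from it, at -1.76 in A549 and 0.21 in MDA-MB-231.

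The starting levels of the lines were alike in rank and differed for a few genes. In A549 control, the constitutive core ranged from 67.2 ± 1.22 TPM for PSMB2 to 554 ± 21.7 for PSMB3, the 19S cap from 92.6 ± 5.21 for PSMD12 to 353 ± 8.89 for PSMD8, and the immunoproteasome from 27.1 ± 2.86 for PSMB9 to 35.4 ± 1.37 for PSMB10 (SD, n = 3). The Spearman correlation of mean TPM between the control groups over the 46 genes was 0.88, again a description over genes. MDA-MB-231 control was higher than A549 control for 9 genes, where 40.9% of all genes were, and lower for 25, where 40.1% were. On log2(TPM + 1) these counts turned to 20 and 15, where 48.7% and 30.7% of all genes were, and 61.3% of all calls were higher in place of 50.5%. PSMB8, PSMD2 and PSMB9 were the genes most above A549, by 1.85, 1.44 and 0.87 on the log2 scale of counts, and PSMA4 was the most below, at -1.22. The line cannot be told apart from anything that went with its culture or library preparation.

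Other genes of the pathway were read as 4 lists, whose counts stand against the following shares of all genes tested. With siRNA1 in A549 32.8% fell and 39.0% rose, and with siRNA2 28.4% fell and 32.5% rose. With siRNA3 30.4% fell and 30.9% rose (31.4% and 32.5% without the third library). With siRNA1 in MDA-MB-231 27.8% fell and 27.5% rose. Of 16 further proteasome parts, maturation factors and shuttles, 12 fell (75%) and 1 rose (6.25%) with siRNA1 in A549. With siRNA2 8 fell (50%) and 3 rose (18.8%), and with siRNA3 5 fell (31.2%) and 3 rose (18.8%). Without the third library the siRNA3 counts were 8 (50%) and 3 (18.8%). In MDA-MB-231 4 fell and 4 rose with siRNA1 (25% each). POMP, which matures the beta ring, had 134, 150 and 113 CPM in A549 control, 62.5, 63.3 and 54.2 with siRNA1 and 75.0, 83.4 and 83.9 with siRNA2, below the control without overlap. It fell by 1.14 and 0.71. UCHL5, a cap-bound deubiquitinase, fell by 1.21, 1.35 and 0.85 with siRNA1, siRNA2 and siRNA3, and USP14, a further one, by 1.01, 0.45 and 0.70. Without the third siRNA3 library the siRNA3 values were -0.84 and -0.55. The shuttle RAD23B had 354, 384 and 378 CPM in control, 142, 169 and 144 with siRNA1, 100, 106 and 121 with siRNA2 and 384, 326 and 343 with siRNA3. It was 59.3% lower with siRNA1 and 70.7% lower with siRNA2 and was not called with siRNA3.

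Of 12 genes that control 26S transcription, 8 fell (66.7%) and 2 rose (16.7%) with siRNA1 in A549. With siRNA2 9 fell (75%) and 2 rose (16.7%). With siRNA3 7 fell (58.3%) and 3 rose (25%), with or without the third library. In MDA-MB-231 4 fell (33.3%) and 7 rose (58.3%) with siRNA1. NFE2L1 (NRF1) was at -0.01 with siRNA1 and not called, rose by 0.53 with siRNA2 and fell by 0.33 with siRNA3 (0.22 without the third library) and 0.23 in MDA-MB-231. DDI2, the protease that activates NRF1, fell by 0.86 with siRNA1 and 0.88 with siRNA2. NFYB, a subunit of the factor that binds CCAAT, fell by 1.00, 1.05 and 0.68 in A549 and by 0.51 in MDA-MB-231, with an siRNA3 value of -0.76 without the third library. Of 13 interferon-control and neighbouring MHC genes, 4 rose and 4 fell with siRNA1 in A549 (30.8% each, against 39.0% and 32.8% of all genes). With siRNA2 3 rose (23.1%, against 32.5%) and 4 fell (30.8%, against 28.4%). The siRNA1 and siRNA2 shares in A549 thus lay near or under those of all genes. With siRNA3 5 rose (38.5%) and 2 fell (15.4%), with or without the third library. In MDA-MB-231 7 rose (53.8%) and 1 fell (7.69%). IRF1, an activator of PSMB8 and PSMB9, was called in A549 only with siRNA3, where it rose by 0.59 (0.55 without the third library), and NLRC5, the MHC class I activator, rose by 1.09, 0.70 and 0.74 with the 3 siRNAs (0.91 with siRNA3 without the third library).

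Of 8 genes for ubiquitin supply and the VCP segregase, 1 rose (12.5%) and 3 fell (37.5%) with siRNA1 in both lines. Of all genes, 39.0% rose and 32.8% fell with siRNA1 in A549, and 27.5% and 27.8% in MDA-MB-231. With siRNA2 and with siRNA3, 3 rose (37.5%, against 32.5% and 30.9% of all genes) and 0 fell. Without the third library, 3 rose and 1 fell (12.5%) with siRNA3. UBB, which encodes a chain of ubiquitin repeats, fell with siRNA1 by 0.87 in A549 and 0.88 in MDA-MB-231, from 816, 902 and 865 to 485, 423 and 503 CPM and from 617, 668 and 582 to 346, 335 and 336 CPM. The groups did not overlap in either line. UBB holds near-identical ubiquitin repeats, so its counts are estimates where reads could be shared with other genes.

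PSMC3IP, the gene that shares the name pattern but encodes a recombination cofactor, had 24.5, 28.4 and 25.7 CPM in A549 control, 2.39, 2.11 and 2.78 with siRNA1, 10.1, 11.7 and 9.66 with siRNA2 and 15.5, 15.2 and 18.6 with siRNA3. All siRNA libraries lay below the controls. It fell by 3.43, 1.32 and 0.68 on the log2 scale (0.77 for siRNA3 without the third library), and by 0.49 in MDA-MB-231, more with siRNA1 in A549 than any of the 46 proteasome genes.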

How the data were processed

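RNA-seq of 18 libraries, 6 groups of 3, was deposited as 1 gene table per library. Per the file headers each table gives RSEM expected counts, TPM, FPKM and gene length, and per the submitters' processing notes RSEM and the hg19 build were used. Neither aligner nor annotation release is given in the sources used here, and the same holds for strandedness and the version of RSEM. Transcripts carry RefSeq identifiers. The deposited expected counts are estimates, with 10.2% to 11.8% of values not whole. The FPKM deposited by the authors was not used. The deposited TPM served for levels per length, within-library ratios and an alternative fit.

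Expected counts were rounded to whole numbers, filtered with filterByExpr (minimum count 10, minimum total 15), scaled by TMM and fitted across all genes with edgeR 4.0.16 (glmQLFit, glmQLFTest) in R 4.3.3. A549 was fitted over its 12 libraries, MDA-MB-231 over its 6, and the line comparisons over the 12 control and siRNA1 libraries with line, siRNA and their interaction. Genes were called at a Benjamini-Hochberg adjusted p under 0.05 over all genes tested. CPM values are scaled by TMM. The script was tested on simulated data. It recovered 54.9% of 1.5-fold changes for siRNA1 in A549, 68.9% in MDA-MB-231 and 42.5% in the interaction. A gene not called is therefore not shown to be unchanged. Classes got no test. Alternatives were DESeq2 1.42.0 size factors and Wald test, upper quartile factors, other filters, limma 3.58.1 (voom, and trend on log2 TPM plus 1 or 0.1), a transcript length trend removed, the replicate number as a block, the 2 compared groups alone, and each library left out in turn.

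Members and lists were chosen with earlier results of these data known. Any member could be named, and the members with the largest change in a class, with the catalytic and immunoproteasome subunits, got values per library. Libraries of a group were compared in pairs and none agreed within sampling noise. Promoter windows came from RefSeq (GRCh38.p14), a later build than that of the counts, and only gene symbols linked them. Single values of a few listed genes are not reported here.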

Additional observations from a re-analysis of the deposited data

Results flagged for a closer look

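The effect of siRNA1 differed between the lines for 29 of the 46 proteasome genes, by the edgeR interaction of line and siRNA at an adjusted p under 0.05, a test that also called 57.8% of all 16736 genes. Values are the log2 effect in MDA-MB-231 minus that in A549. In the alpha ring the difference was 0.50 for PSMA1, 0.37 for PSMA2, 1.07 for PSMA3, 0.43 for PSMA4, 0.51 for PSMA5, 0.24 for PSMA6 and 0.49 for PSMA7. In the beta ring it was 0.48 for PSMB3, 0.31 for PSMB5 and 0.47 for PSMB7. For the immunoproteasome genes it was 1.92 for PSMB9 and 0.63 for PSMB10, where siRNA1 lowered both genes in A549 and raised both in MDA-MB-231, and -0.41 for PSMB8, which rose in both lines. In the 19S cap it was 0.37 for PSMC6, 0.26 for PSMD1, 0.29 for PSMD4, 0.56 for PSMD6, 0.34 for PSMD7, 0.42 for PSMD11, 1.09 for PSMD12, 0.30 for PSMD13 and 0.59 for PSMD14. Among activators it was 0.45 for PSME2 and 0.44 for PSME3, and -0.29 for PSME4. Among assembly chaperones it was 0.50 for PSMD10, 0.80 for PSMG1, 0.94 for PSMG2 and 0.57 for PSMG3. Of these interaction calls, those of PSMB5, PSMB8, PSMD13 and PSME4 were lost on leaving out some single libraries. So were the siRNA1 calls of PSMB10 in A549 and of PSMB8 and PSMB9 in MDA-MB-231. No cause of the differences between the lines was tested, and BLM itself fell by 6.04 in A549 and 2.76 in MDA-MB-231 on the log2 scale.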

How the results depend on the processing

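Over every alternative run, 26 to 41 proteasome genes were lower with siRNA1 in A549, and 12 to 15 with siRNA2. The shares of all genes lower ran from 22.3% to 37% and from 21.9% to 35%. On log2 TPM, with either pseudocount, 5 genes were higher with siRNA1, 18 with siRNA2 and 12 with siRNA3 in A549, 6 were lower in the interaction, and MDA-MB-231 control had 20 genes higher and 15 lower than A549 control. With pseudocount 1, 48.4%, 34.7% and 27.8% of all genes were higher with the 3 siRNAs in A549. In the interaction 39.6% of all genes were lower, and between the controls 48.7% were higher and 30.7% lower. Signs turned on that scale, with pseudocounts 1 and 0.1, for PSMC2 (0.035 and 0.036), PSMC4 (0.036 and 0.036) and PSMD5 (0.084 and 0.085) with siRNA1 in A549, and between the controls of the lines for PSMA1 (0.10 and 0.10), PSMA6 (0.19 and 0.19), PSMA7 (0.21 and 0.21), PSMC1 (0.16 and 0.16), PSMC5 (0.087 and 0.087), PSMD14 (0.26 and 0.26), PSMD7 (0.077 and 0.077) and PSMG1 (0.069 and 0.069). With the length trend removed, 15 genes were higher with siRNA3 (against 32.5% of all genes), the interaction was 0.019 for PSME4 and 0.26 for PSMF1, and PSME4 was at -0.074 between the controls. With that correction and the replicate block together the values were 15 (against 31.3% of all genes), 0.020, 0.27 and -0.10. TPM divides by length and is scaled to the library sum. The cause of the shift of all genes on that scale was not tested. Leaving out 1 library in turn gave 9 to 22 genes lower with siRNA3 (9 without its second library, 22 without the third), 2 to 5 higher with siRNA1 in MDA-MB-231 (3 without its first and 2 without its second siRNA1 library), and 0 to 2 lower in the interaction, with 0 without any 1 MDA-MB-231 siRNA1 library or the second MDA-MB-231 control library. Over all such omissions 147 single-gene calls were lost and none turned sign.

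Deviations of libraries with the same number correlated between groups at -0.76 to 0.55. Since they were taken from means of 3 libraries, these correlations cannot decide whether the replicate numbers pair the samples. A replicate block moved the calls to 3 higher and 35 lower with siRNA1, 9 and 13 with siRNA2, 7 and 13 with siRNA3, 5 and 17 in MDA-MB-231, 28 and 2 in the interaction and 6 and 23 between the controls, within 1.5 times of the counts without it. In the same order, the shares of all genes with the block were 37.9% and 31.7%, 31.3% and 27.1%, and 29.6% and 29% for the A549 siRNAs. They were 27.3% and 27.5% in MDA-MB-231, 27.5% and 30.8% in the interaction and 37.5% and 36.5% between the controls. Depth limits PSMG4 most, whose highest library held 285 expected counts in A549 and 481 in MDA-MB-231.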
